A study of Mus musculus with 6 samples.

Results

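The subject here is SALL4 occupancy at 9 genes of limb and heart development in mouse embryonic stem cells, namely Tbx5, Tbx4, Fgf10, Fgf8, Gli3, Shh, Hand2, Grem1 and Meis2. The genes were chosen by name, because they act in limb and heart defects that resemble those of SALL4 loss or of thalidomide exposure, and the rule uses no measured value, although earlier results of these data were known when the genes were picked. All SALL4 intervals overlapping a gene body or the 50 kb on either side of it were taken, with overlapping lines of 1 list merged. All 9 genes were found in the gene table, among 21887 coding genes. Their windows held 51 of 55058 intervals in wild-type replicate 1, 48 of 48295 in wild-type replicate 2, 0 of 34 in knockout replicate 1 and 0 of 39 in knockout replicate 2. Of the 37997 consensus regions, meaning regions present in both wild-type lists and overlapping no knockout interval, 39 lay in the 9 windows.

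SALL4 was mapped by CUT&RUN, which releases the DNA around a bound protein with a nuclease that an antibody holds in place inside cells opened with digitonin. The wild-type group was the line Sall4F/F, whose Sall4 gene is flanked by recombination sites and intact. The knockout group was the line Sall4-/-, which lacks the gene. Both lines grew in 2i + LIF medium, each line was profiled with 2 SALL4 libraries, and each genotype is represented by a single line, so that genotype and line cannot be told apart. Of the 6 samples of the series, the 2 IgG samples were not analysed here. Nothing in the labels says that the 2 libraries of a line came from separate cultures, and the tests then measure only the spread between these libraries, which may be technical. In the wild-type replicate 2 list the interval names spell the genotype with letters of both genotypes, and the sample titles were followed.

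SALL4 is a zinc-finger protein of the spalt family that is abundant in embryonic stem cells and is needed again in the limb bud. In people, loss of 1 copy causes Duane-radial ray (Okihiro) syndrome, with defects of the thumb and forearm and sometimes of the heart. Thalidomide and its relatives make the ubiquitin ligase substrate receptor cereblon bind SALL4 and mark it for destruction, and the resulting defects resemble those of the inherited syndrome and of TBX5 mutation (Holt-Oram syndrome). In the limb bud, T-box factors switch on Fgf10 in the mesenchyme, FGF10 induces Fgf8 in the overlying ridge, and Shh in the posterior margin acts through Gli3, with Hand2 upstream of Shh and Grem1 linking Shh to the ridge. The intervals described here come from pluripotent cells and not from a limb.

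RefSeq promoter windows of the build GRCm38.p6 were matched by symbol to 6 of the 9 genes, and the other 3 (Tbx5, Fgf8 and Shh) have no entry in that table. The 250 bases before the start are shown for 4 genes, 5′ to 3′ on the strand of the gene. Starts are those of the promoter table. They coincide with the outer end of the annotated gene body except at Tbx4 and Meis2, where the start lies 10.4 and 2.92 kb inside the body, and so do the windows shown. Meis2 (chr2:116064620-116064869, minus strand) and Fgf10 (chr13:118714449-118714698, plus strand) are shown because their consensus regions came nearest to a start. Tbx4 (chr11:85896515-85896764, plus strand) and Hand2 (chr8:57320733-57320982, plus strand) are shown because they hold the AT-rich letters ATATT. Capitals mark ATATT or its reverse complement, letters of the kind that the last zinc-finger cluster of SALL4 is known to bind.
Meis2: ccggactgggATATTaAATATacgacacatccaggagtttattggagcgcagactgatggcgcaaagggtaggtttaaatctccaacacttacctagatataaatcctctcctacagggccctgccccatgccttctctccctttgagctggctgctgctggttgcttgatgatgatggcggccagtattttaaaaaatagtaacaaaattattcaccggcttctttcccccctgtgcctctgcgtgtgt
Fgf10: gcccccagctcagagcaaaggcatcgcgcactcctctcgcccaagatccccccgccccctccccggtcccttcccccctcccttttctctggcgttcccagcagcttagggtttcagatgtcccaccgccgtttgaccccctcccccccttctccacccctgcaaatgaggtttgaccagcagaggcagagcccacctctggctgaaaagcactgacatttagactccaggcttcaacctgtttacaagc
Tbx4: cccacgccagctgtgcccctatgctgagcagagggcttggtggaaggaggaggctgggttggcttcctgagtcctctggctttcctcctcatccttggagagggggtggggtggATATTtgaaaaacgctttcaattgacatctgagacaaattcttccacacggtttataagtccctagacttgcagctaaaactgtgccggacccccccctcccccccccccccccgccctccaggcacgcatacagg
Hand2: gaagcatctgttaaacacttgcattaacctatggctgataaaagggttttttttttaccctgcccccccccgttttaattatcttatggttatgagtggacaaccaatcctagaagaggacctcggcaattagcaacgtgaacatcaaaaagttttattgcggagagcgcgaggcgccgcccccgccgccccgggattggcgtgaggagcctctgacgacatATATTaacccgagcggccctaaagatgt

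Both strands were searched for ATATT and for AATATT, which contains ATATT. Of the 6 member promoters, 3 held ATATT, with 2 matches in Meis2 and 1 each in Tbx4 and Hand2, and 0 held AATATT. Over all 32851 promoter windows cut to the same 250 bases, 23.3% held ATATT and 6.17% held AATATT. Among the 1025 promoter windows that a consensus region overlapped, the shares were 25.4% and 4.98%, so the promoters under SALL4 regions held these letters about as often as promoters in general. The A+T content of the member windows ran from 27.2% at Gli3 to 52.4% at Meis2, against a median of 47.6% over all windows. None of the 6 member windows was overlapped by an interval of any list, and these matches are a description of the letters only.

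The first comparison was between genotypes. The 9 windows together held 49.5 ± 2.12 intervals in wild type (SD, n = 2) and 0 in each knockout library. On the scale of log2 (intervals + 1) the difference was 5.66, against a within-genotype SD of 0.0606 in wild type. Exact permutation of the genotype labels (two-sided) returned p = 0.333, which is the floor for 2 libraries against 2, so this design cannot pass 0.05. In 8 of the 9 windows both wild-type lists held more intervals than either knockout list, and the groups did not overlap there. The same held for 70.6% of all coding genes, so the 9 genes share this with most coding genes. Every knockout interval lay on X or Y, and 0 lay on any chromosome that carries one of the 9 genes.

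**Figure D1:**
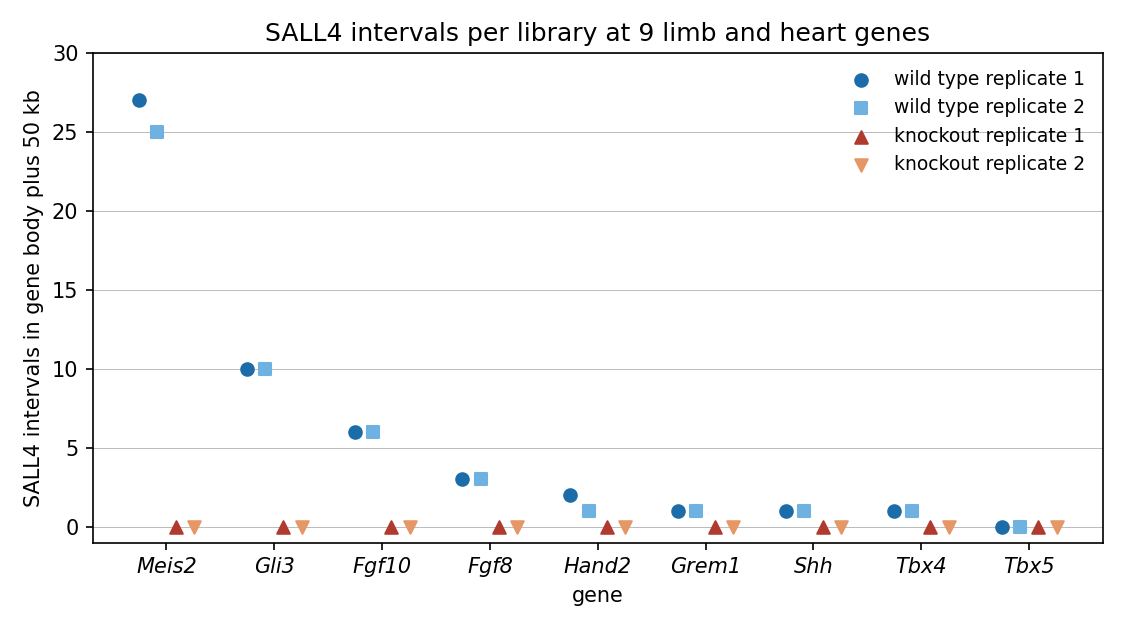
Number of SALL4 intervals (vertical axis) in the gene body plus 50 kb of each gene (horizontal axis), 1 point per library, with circles and squares for the wild-type replicates and triangles for the knockout replicates. Meis2 stands highest with 27 and 25 intervals, Tbx5 has 0 in all 4 libraries, and all knockout points lie at 0.

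The 9 genes differed widely among themselves. A consensus region was present at 8 of 9, against 68.7% of all coding genes with the same kind of window. Since windows differ in length, the genes were ordered by wild-type intervals per 100 kb. Meis2 came first with 8.49 ± 0.462 per 100 kb (SD, n = 2), followed by Fgf10 with 3.37, Fgf8 with 2.82 and Gli3 with 2.73. Hand2 had 1.45 ± 0.683, Grem1 and Shh had 0.909 and 0.907, Tbx4 had 0.771 and Tbx5 had 0. Apart from Meis2 and Hand2, both replicates gave the same number of intervals at each gene, so the SD is 0 there and understates the counting error of small numbers. The values from Hand2 down to Tbx4 each rest on 1 or 2 intervals per library and do not order those genes, and a single interval more or less would also exchange Fgf10, Fgf8 and Gli3. The lead of Meis2 is larger than such a step, while the 0 of Tbx5 is 1 interval per list below Tbx4, Shh and Grem1.

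In terms of consensus regions per 100 kb the median of the 9 windows was 0.966, and the median of all coding gene windows was 0.970. The order of these medians depended on the setting. With 100 kb flanks they were 2.38 and 1.31, in wild-type replicate 2 alone 0.966 and 1.48, and in replicate 1 alone 1.93 and 1.75. Meis2 had a higher density than 94.3% of coding genes, and 31.3% of coding genes shared the 0 of Tbx5. Pooled over all 1599 kb of the windows, the density was 2.44 regions per 100 kb, and without Meis2 it was 1.55, close to the 1.48 found over the whole span of the autosomes and X. The excess of the pooled value thus came from 1 gene, which held 48.7% of the regions.

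**Figure D2:**
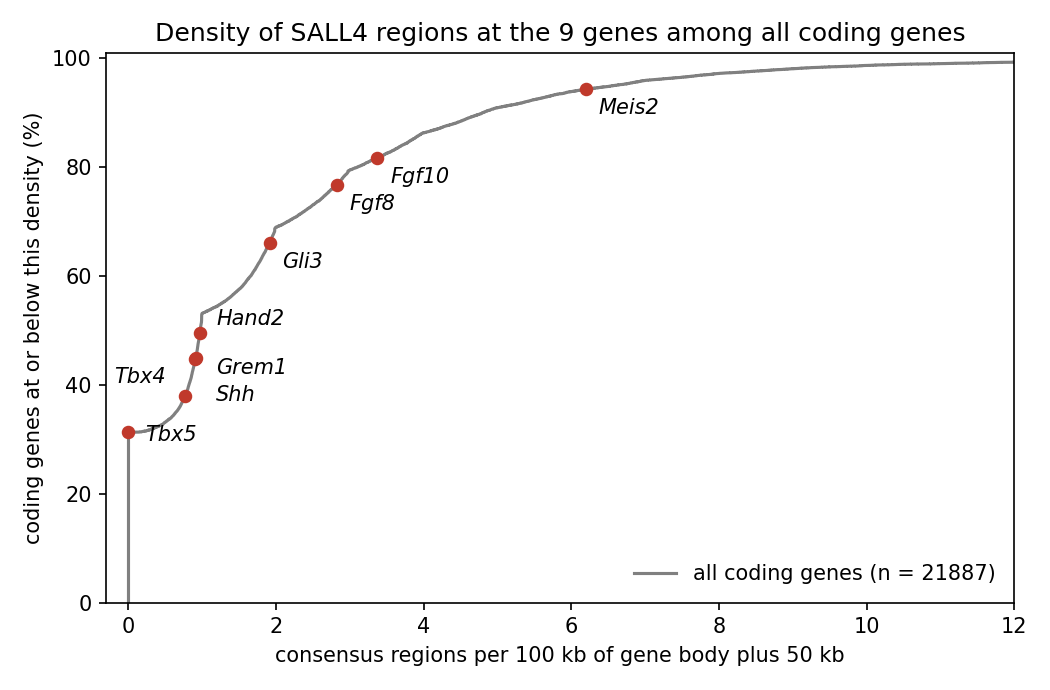
Consensus regions per 100 kb of gene body plus 50 kb (horizontal axis) against the percentage of coding genes at or below that density (vertical axis), with the 9 genes as points on the curve of all 21887 coding genes and the horizontal axis ending at 12. Tbx5 lies at 0, Tbx4, Shh, Grem1 and Hand2 lie near the median of 0.970, and Meis2 lies at 6.20.

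Meis2 (gene ID 17536, chr2:115861264-116067537) encodes a homeodomain partner of PBX and HOX proteins that marks the proximal limb, and the MEIS2 protein is itself bound by cereblon. The window held 27 intervals in wild-type replicate 1, 25 in replicate 2 and 0 in both knockout libraries. They formed 19 consensus regions, and all 19 lay inside the gene body, which gives 9.21 per 100 kb of gene and 0 in the 100 kb of flanks. Among 404 coding genes whose windows differed in length from that of Meis2 by at most 10%, the median was 4 regions, and 8.17% had more than 19. Most genes with windows of that size thus held far fewer.

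The strongest region lay at chr2:115981157-115981687, with fold enrichments over the local background of 19.97 and 16.998 in replicates 1 and 2, as the authors' peak caller gave them. Those summits rested on 28 and 24 fragments. It belongs to a group of 6 regions within 7.17 kb (chr2:115978755-115985928), and its own summit lay 83.4 kb downstream of the tabled start. Of all 37997 stretches of 10 kb that begin at a consensus summit, 0.966% held 6 or more. The region chr2:115870037-115870677, with fold enrichments of 14.2 and 13.0, sat near the far end of the gene. The region nearest to the tabled start, chr2:116059754-116060389, had its summit 4.40 kb downstream of it. Compared with chr2:115870037-115870677 it was the stronger in replicate 1 and the weaker in replicate 2, with fold enrichments of 15.8 and 11.1. A further summit lay 8.49 kb downstream of that start. Between the tabled start and the outer end of the gene, replicate 1 alone held an interval, chr2:116066959-116067071, at 6.20-fold on 8 fragments. Occupancy of Meis2 was thus spread along the whole transcription unit, with strong regions near both ends and in the middle.

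Gli3 (gene ID 14634, chr13:15463723-15730026) encodes the transcription factor that restrains the Hedgehog programme in the anterior limb, and mutation of its human counterpart gives extra digits. The window held 10 intervals in each wild-type list and 0 in each knockout list. In each wild-type list 7 of the 10 were found in the other, which made 7 consensus regions, 6 of them in the gene body. Among 256 coding genes with windows of like length the median was 5 regions, and 36.7% had more than Gli3. Its leading regions, chr13:15714442-15714916 and chr13:15604288-15604829, had fold enrichments of 15.2 and 15.6, and of 13.7 and 15.0, in replicates 1 and 2. They lay 251 and 141 kb from the start, deep inside the gene, on 21 and 22 and on 26 and 21 fragments. The nearest summit to the start of Gli3 was 23.9 kb away and weak, with fold enrichments of 4.57 and 6.12. The summits of the replicates lay over 100 bp apart in 5 of the 7 regions, and 2 were left when summits had to lie within that distance.

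The FGF ligands came next. Fgf10 (gene ID 14165, chr13:118714699-118792573) encodes the mesenchymal signal without which no limb bud grows out. Its window held 6 intervals in each wild-type list, all 6 of each found in the other list, and 0 in the knockout lists. The leading region, chr13:118716877-118717122, had fold enrichments of 12.4 and 10.9 on 17 and 15 fragments. Its summit lay 2.27 kb inside the gene from the start, nearer than at any other of the 6 genes with a known start. Of the other 5 regions, 2 lay before the start, at -8.71 and -7.67 kb, and 3 lay further inside the gene, and the mean fold enrichments of these 5 ran from 4.67 to 8.22. Together 5 of the 6 regions fell within 15 kb of the start, while nothing was found in the 50 kb past the far end of the gene.

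Fgf8 (gene ID 14179, chr19:45736491-45742941) encodes the ridge signal that keeps the mesenchyme growing. Each wild-type list held 3 intervals in its window and each knockout list 0. All 3 consensus regions lay on the higher-coordinate side of the gene, from 20.9 kb away, and none lay in the gene. The strongest, chr19:45790443-45791089, lay in no gene, between Oga and Kcnip2, and was enriched 12.8-fold in replicate 1 and 8.005-fold in replicate 2. Another, chr19:45763819-45764084, lay inside Oga, the gene of a housekeeping enzyme that removes sugar groups from proteins, with fold enrichments of 5.48 and 4.08. Which gene these regions act on was not tested.

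Shh (gene ID 20423, chr5:28456840-28467101) encodes the morphogen of the posterior limb margin. Each wild-type list held 1 interval in the window and each knockout list 0. The region, chr5:28437260-28437622, lay 19.2 kb from the gene in no annotated gene, and its fold enrichments of 11.7 and 11.6 on 16 fragments in both replicates made it the strongest among the genes with a single region. Grem1 (gene ID 23892, chr2:113748675-113758648), which encodes a secreted BMP antagonist, also had 1 region, chr2:113724512-113724632, at 24.0 kb from the gene. Its fold enrichments were 7.58 in replicate 1 and 3.52 in replicate 2, and the second value rests on 6 fragments, so this region was much less even between replicates than that of Shh.

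Hand2 (gene ID 15111, chr8:57320983-57324517) encodes a basic helix-loop-helix factor of the posterior limb and of the heart's right ventricle. Its window held 2 intervals in wild-type replicate 1, 1 in replicate 2 and 0 in the knockout libraries. The only consensus region, chr8:57306553-57306754, lay 14.3 kb before the start inside the long non-coding RNA gene Hand2os1. Its fold enrichments of 3.44 and 4.76 rested on only 4 and 6 fragments. The other interval of replicate 1, chr8:57305525-57305726, was stronger, with a fold enrichment of 6.79 on 11 fragments, but had no partner in replicate 2. The summits of the consensus region in the replicates lay further than 100 bp apart, and requiring summits within 100 bp removed that region.

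Of the limb T-box genes, Tbx4 (gene ID 21387, chr11:85886367-85916097) encodes the factor of hindlimb outgrowth. It had 1 interval in each wild-type list and 0 in the knockout lists. The region, chr11:85919181-85919629, lay 3.08 kb past its higher-coordinate end, with fold enrichments of 7.78 and 8.05 on 12 and 15 fragments. Tbx5 (gene ID 21388, chr5:119796514-119885220) encodes the factor of forelimb initiation and of heart septation, and its human counterpart is the gene of Holt-Oram syndrome. No interval of any of the 4 lists lay within 50 kb of it. Among 1367 coding genes with windows of like length, the median was 3 regions and 15.1% had 0.

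The empty stretch around Tbx5 was far longer than its window. The nearest intervals lay 74.8 and 74.9 kb below the gene in wild-type replicates 1 and 2, and 705 and 848 kb above it. The resulting gaps of 869 and 1012 kb compare with median gaps of 9.86 and 11.8 kb between neighbouring intervals of the 2 lists. On the autosomes and X, 122 and 89 gaps in the lists were longer, which is 0.222% and 0.185% of them. Of the 21631 coding genes on those chromosomes, 2.76% and 3.02% lay in gaps at least as long. The gap of replicate 1 also held Rbm19, Lhx5, Sdsl, Sds, Plbd2, Slc8b1 and Tpcn1, so the lack of intervals extended over 8 coding genes, Tbx5 included. On the other side of the gap stood Tbx3, the neighbouring T-box gene, with 9 and 10 intervals in the wild-type lists and 7 consensus regions, more per 100 kb than 94.2% of coding genes. Tbx3 was singled out here after its values were seen. Whether reads can be placed uniquely across this stretch, and how deeply the control covered it, was not tested.

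**Figure D3:**
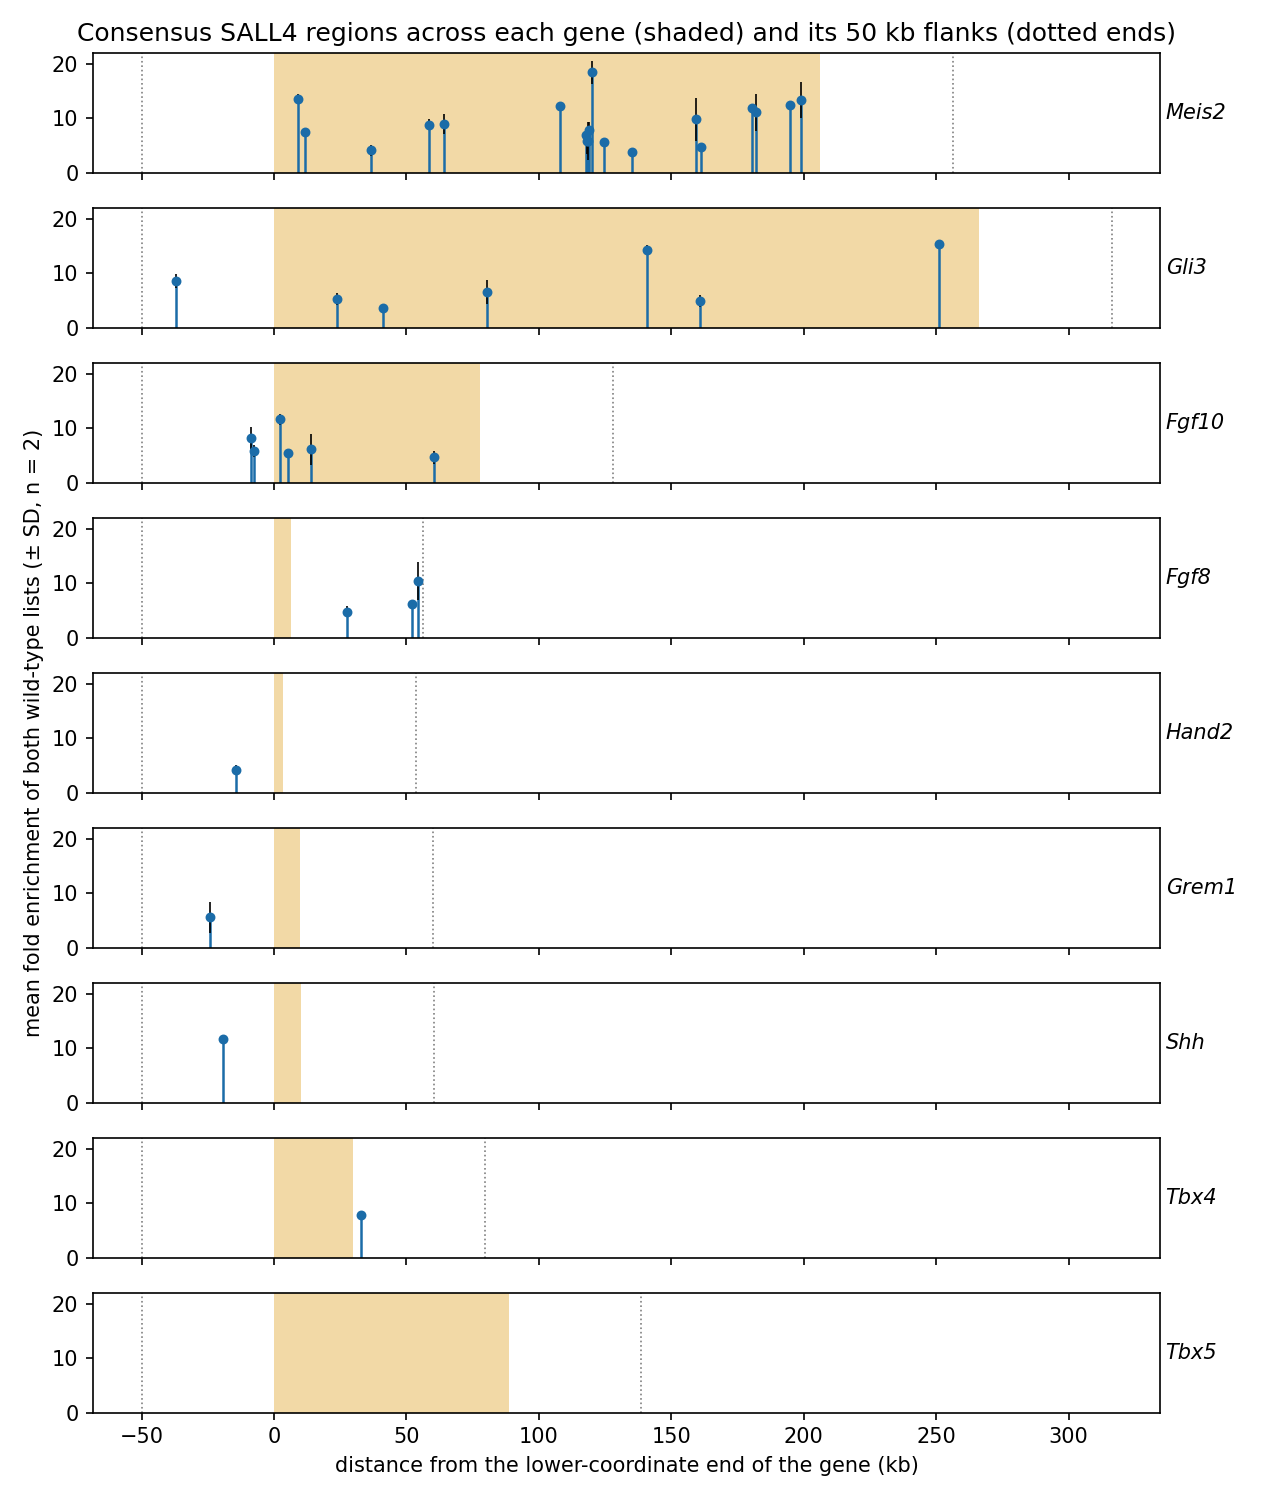
Each panel shows 1 gene, with the distance from the lower-coordinate end of the gene in kb (horizontal axis, gene body shaded, ends of the 50 kb flanks dotted) and the mean fold enrichment of both wild-type lists for each consensus region (vertical axis, error bars are SD, n = 2). The 19 regions of Meis2 all stand inside the gene, the regions of Fgf8, Shh, Grem1, Hand2 and Tbx4 all stand outside it, and the panel of Tbx5 is empty.

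Position relative to the genes split the group. Of the 39 regions 29 lay in the body of a member gene, all of them in Meis2, Gli3 or Fgf10. The density was 4.15 regions per 100 kb of gene body and 1.11 per 100 kb of flank. Meis2 held 19 of the 29, and without it the densities were 2.03 and 1.25. Pooled over all coding genes they were 1.84 and 1.87. At the 4 genes of at most 10.3 kb (Fgf8, Shh, Hand2 and Grem1), 6 regions were found and 0 lay in the body. Of the 10 regions outside member genes 8 lay in no gene at all. For the 6 genes with a known start, 0 had a consensus region within 1 kb of it, against 6.95% of the 17492 coding genes in the promoter table. With 6 genes this share would give less than 1 gene on average, so the 0 says little. At Fgf8 and Shh, whose starts are not in the table, no region lay within 19 kb of either end of the gene.

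The strength of the 39 regions was ordinary. Their median fold enrichments were 7.58 and 7.06 in replicates 1 and 2, against 7.11 and 6.54 over all consensus regions. A mean fold enrichment of at least 10 was reached by 12 of them, which is 30.8%, against 25.7% of all consensus regions, and 7 of the 12 lay in Meis2. The Meis2 regions had medians of 8.13 and 8.67, and the regions of the other genes 6.89 and 6.33. By the worse of their 2 ranks, the 5 best were the Meis2 regions starting at 115981157, 115870037 and 116055927 and the Gli3 regions starting at 15714442 and 15604288. The best of them ranked 2118 and 2675 among the 37997 regions, above about 94.3% and 92.8% of them in replicates 1 and 2. No member region ranked higher in either list. Widths ran from 105 to 701 bp, with a median of 327 bp that equals the median of all consensus regions.

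By overlap the replicates agreed at these loci about as well as elsewhere, while their fold enrichments correlated somewhat less. Of the 51 replicate 1 intervals 40 were found in replicate 2, or 78.4% (Wilson 95% bounds 65.4 and 87.5), against 70.4% of that whole list. Of the 48 replicate 2 intervals 39 were found in replicate 1, or 81.2% (bounds 68.1 and 89.8), against 79.3% of that list. These bounds cover counting error only. The 11 and 9 intervals without a partner lay at Meis2 (7 and 6), Gli3 (3 and 3) and Hand2 (1 and 0), with median fold enrichments of 4.13 and 4.08, against 7.58 and 7.06 for those with a partner. The highest among them were the Hand2 interval in replicate 1, at 6.79, and a Meis2 interval in replicate 2, at 6.76. Across the 39 regions the fold enrichments of the replicates correlated with a Spearman's rho of 0.731 and, after log2, a Pearson's r of 0.744, as a description across regions that share both libraries. Over all consensus regions the values were 0.771 and 0.834. Summits of the 2 replicates lay a median of 22 bp apart, and in 32 of the 39 regions at most 100 bp apart. The summit distances over all consensus regions are not given here.

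**Figure D4:**
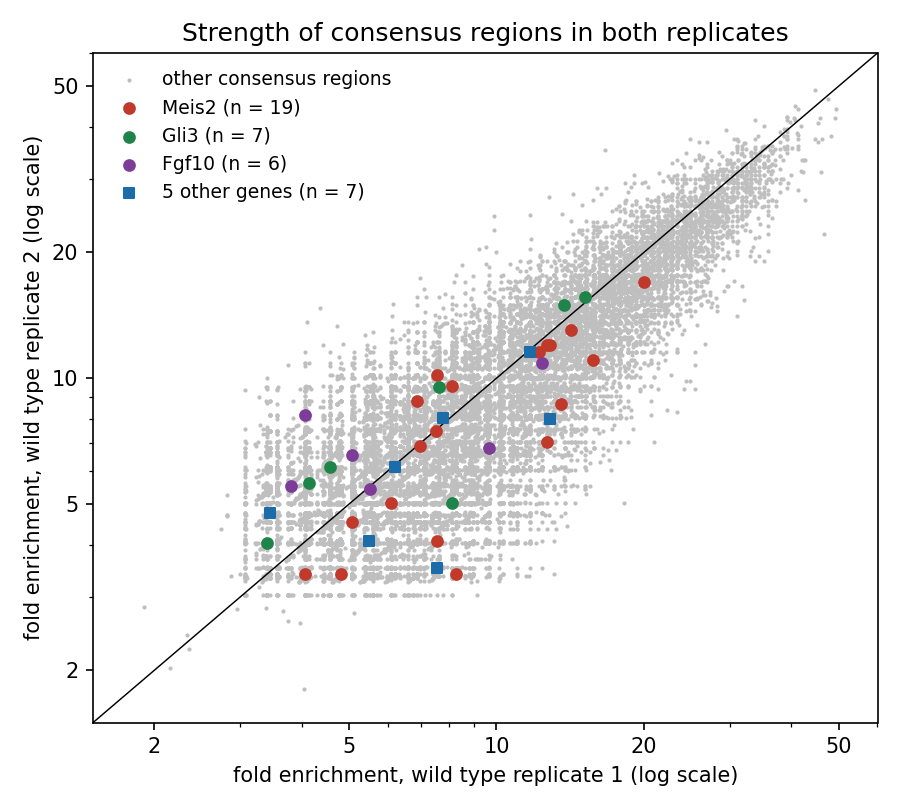
Fold enrichment in wild-type replicate 1 (horizontal axis) against replicate 2 (vertical axis), both on log scales, with all consensus regions in grey and the 39 regions of the 9 genes in colour (Meis2, Gli3 and Fgf10 as circles, the other genes as squares). The coloured points lie within the grey cloud, mostly in its lower and middle part, and the highest is a Meis2 region at 19.97 and 16.998.

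Other regulators of limb and heart were set beside the 9 genes from lists chosen by function. Of 30 further limb genes 25 had a consensus region in the gene body plus 50 kb, and of 12 heart genes 9 did, against the 68.7% of all coding genes. None of these 42 genes had a knockout interval in its window. All of them lie on autosomes and every knockout interval lay on X or Y, so this could not come out otherwise. The limb genes held 110 regions with a median density of 1.68 per 100 kb, and the heart genes 20 regions with a median density of 0.993, beside 0.966 for the 9 genes. By number of regions the limb list was led by Etv5 with 21, Bmp4 with 12 and Trp63 with 8. Per 100 kb Trp63 had only 2.59, over a window of 308 kb, below Tbx3 with 6.13 and Fgf4 with 4.81. Etv5 encodes a transcription factor that relays FGF signals, and its 21 regions, from 25 and 21 wild-type intervals, amount to 13.3 per 100 kb, more than at 99.5% of coding genes. Bmp4 encodes a secreted growth factor, and its 12 regions all lay outside its own gene body. Tbx2, Bmp2, Msx1, Alx4 and Hoxd13 had 0 consensus regions, although the wild-type lists held 1 and 0 intervals at Bmp2 and 3 and 1 at Hoxd13.

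Among the heart genes Nppa, which encodes the atrial natriuretic peptide, had 5 regions and Tbx20, a cardiac T-box gene, had 4. Gata4, Gja5, Myh6 and Myocd had 2 each. Isl1, Mef2c and Nkx2-5, which encode cardiac transcription factors, had 0 consensus regions, with 1 and 0 wild-type intervals at Nkx2-5. Mef2c lacked intervals in all 4 lists over a window of 263 kb. Of 5 genes whose proteins belong to the thalidomide pathway, Ikzf1 had 6 regions and Zbtb16 had 4, and Crbn, Ddb1 and Ikzf3 had 0, with 0 and 1 wild-type intervals at Crbn. Lmbr1 and Fmn1, which hold distant limb enhancers of Shh and Grem1, had 5 and 4 regions, and the single Fmn1 region outside its gene body is the one given above for Grem1. Of the 5 regions at Lmbr1 2 lay in its gene body. Whether they coincide with the limb enhancer was not tested.

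**Figure D5:**
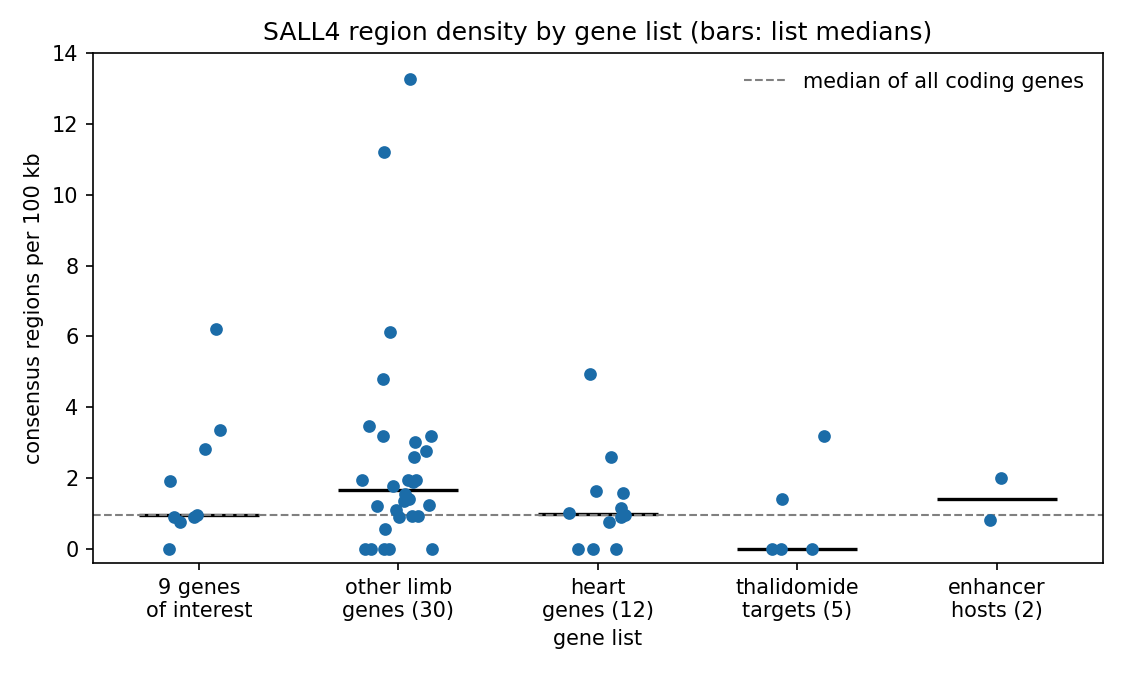
Consensus regions per 100 kb of gene body plus 50 kb (vertical axis) for each gene of 5 lists (horizontal axis), 1 point per gene, with list medians as black bars and the median of all coding genes, 0.970, as a dashed line. The medians of the 9 genes and of the heart genes lie on the dashed line, and Etv5 and Bmp4 stand highest among the other limb genes.

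Genes with an interval profile like that of Meis2 were sought among all coding genes outside the 9 windows, as the smallest sum of absolute differences in intervals per 100 kb over the 4 libraries. The 3 nearest were Pkp2, Pcyt1b and Bcl2l15, with sums of 0.0363, 0.140 and 0.156. Pkp2, for example, had 8.78 and 8.16 intervals per 100 kb in the wild-type lists, beside 8.82 and 8.16 at Meis2, and 0 in the knockout lists.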

How the data were processed

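SALL4 CUT&RUN peak lists of 4 libraries of mouse embryonic stem cells, 2 from the line with an intact floxed Sall4 gene and 2 from the knockout line, were used as deposited, 1 list per library. The submitters' processing notes name Trim Galore 0.6.0, cutadapt 1.18, FastQC 0.11.8, BWA 0.7.17 and MACS2 2.1.1.20160309 and the builds GRCm38 and mm10, with no settings. Read totals and filters are not given in the sources used here. In the deposited lists, fold enrichment is the ratio of fragments piled at a summit to the local background. The −log10 p-value and the −log10 q-value that the authors deposited describe the same summit, and the deposited score is 10 times the −log10 q-value, cut to a whole number. No deposited q-value exceeds 0.05. Fold enrichments were scaled per list by the authors' peak caller, so they were ranked only within a list.

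Overlapping lines of a list were merged and the line with the highest fold enrichment was kept. Pileups were recovered from fold enrichment and p-value, with a pseudocount of 1. All 51 and 48 wild-type intervals of the 9 windows gave whole fragment numbers within 0.0001 in −log10 p, with medians of 10 and 9 fragments and a minimum of 4 in both lists, so single intervals are imprecise. Overlap meant at least 1 bp. Gene positions came from the RefSeq table of GRCm38.p6, and coordinates count from 1. Sequences of the intervals were not used here, as no genome was given, so motifs were searched in promoter windows only. The promoter table gives 1 or more starts per gene. Interval numbers were compared as log2 (number + 1) by exact permutation. Window counts and pileups were tested on simulated lists. The 9 genes, the lists and the rule for named sites (the strongest region of each gene, regions at starts, the 5 best ranks, and for the other lists the genes with 0 regions and the 3 with most) were chosen with earlier results of these data known. Python 3.11.15, numpy 2.4.6, scipy 1.17.1, pandas 2.3.3 and matplotlib 3.10.9 were used.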

Additional observations from a re-analysis of the deposited data

How the results depend on the processing

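The knockout lists hold no interval on the chromosomes of the 9 genes, so the direction of the difference between genotypes could not change under any alternative. In the fit with a replicate block the log2 difference was again 5.66 (exact p = 0.5 by flipping signs, the floor for 2 pairs). Both knockout values were 0, so a correlation between libraries of 1 number could not be computed.

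The number of genes with a consensus region, 8, was 4 once intervals needed a −log10 q of 10 or more, 4 under a fold cut-off of 10, 3 with the gene body alone and 4 with 10 kb flanks. The share of all coding genes at these settings is not given here, so the falls are not read as particular to these genes. The 39 regions became 13, 22 and 10 under the cut-offs −log10 q 10, −log10 p 8 and fold enrichment 10, and 60 with 100 kb flanks. The median density of 0.966 became 0 under both strict q and fold cut-offs, with the gene body alone and with 10 kb flanks, where the median of all coding genes was 0 too. It became 2.38 with 100 kb flanks, against 1.31 over all coding genes, and ran from 0.966 to 1.93 with a replicate left out, with 1.93 without wild-type replicate 2 (all coding genes 1.75) and 0.966 without wild-type replicate 1 (all coding genes 1.48). Stricter cut-offs and narrower windows accept fewer regions by construction. At Tbx5, 100 kb flanks added 3 regions, all on the side of Tbx3.

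The mean share of intervals with a partner in the other replicate, 79.8%, was 64.7% if each had to cover 50% of its partner and 64.7% with summits within 100 bp. It and the correlation between replicates need both wild-type lists, so they have no value with one left out. The median fold enrichment relative to all consensus regions, 1.07, was 0.929 at the strict q-value, 0.831 at the strict fold enrichment, 1.12 at −log10 p 8, 1.104 with the gene body alone, 1.095 with 10 kb flanks and 1.14 to 1.16 with a replicate left out. It crossed 1, so the 9 genes have no clear lead or lag in strength, and the cause was not tested. Of the 49 further genes, 77.6% had a region, against 68.7% of all coding genes. Their share was 44.9%, 38.8%, 38.8% and 49.0% at the strict q-value, the strict fold enrichment, the gene body alone and 10 kb flanks. Shares of all coding genes at those settings are not given here, so the drop is not read as particular to these genes. A start with a region was found at 0 of 6 genes within 1 kb, at 1 within 3 kb and at 2 within 5 kb. Within 1 kb the share of coding genes in the promoter table was 6.95%, and no such share is given for the wider distances.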
